A study of Homo sapiens with 6 samples.

Results

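Heat shock factor 1 (HSF1) is best known for switching on the genes of the HSP70, HSP40 and HSP90 chaperones, but it is also known to act on genes of other kinds. The 9 genes described here are ZFAND2A, DEDD2, CHORDC1, CACYBP, SERPINH1, ABHD3, IER5, RGS2 and TPR. They were taken by name, from loci of the merged assembly whose gene column holds one of them. The names were chosen with earlier results of these data known. All 9 were found, at 10 of the 117001 entries of merged loci, where ZFAND2A has a second entry with the same bounds. All 9 are among the 24166 genes with a value in the single libraries.

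HEK293 cells are an adherent line derived from human embryonic kidney. RNA depleted of ribosomal RNA was sequenced from 3 control and 3 heat shocked samples, all grown at 37°C with 5% CO2 in medium with 10% FBS and then taken as an aliquot during passaging. Heat shocked cells stood in a 45°C water bath for 30 minutes, and control cells were untreated. Collection is placed 30 minutes after the bath in the study's text, while the sample labels give no time after it. The samples carry no transgene or deletion by their labels. The labels call them triplicates and do not say whether they came from separate cultures, so a p-value measures only the spread between these samples.

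In unstressed cells HSF1 is held inactive. On heat stress it forms trimers, enters the nucleus and binds heat shock elements, which are inverted repeats of the unit GAA near the start of a gene. Genes that it acts on besides chaperones are known to take part in protein breakdown, cell death, signalling and the nuclear pore. The comparison asks how far the mRNA of such genes differed between the heat shocked and the control libraries.

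The promoters are shown first, since the heat shock element is what such genes are thought to share. RefSeq promoter windows (GRCh38.p14, 250 bases before to 50 after each start) were available for 9 of the 9 genes, in 13 windows. They were searched on both strands for the 2-unit motifs GAANNTTC and TTCNNGAA, and for a 3-unit motif in which GAA, TTC and GAA follow each other with 2 free bases between them and which contains both shorter ones. The clearest match in each gene that had one is given below as 30 bases, 5′ to 3′ along the gene, with the matching letters in capitals. Positions are those of GRCh37, the build of the deposited assemblies, found by exact match of the window. Of the 13 windows, 12 matched there exactly.
CHORDC1, chr11:89956252-89956281, minus strand: accgGAAAATTCGCGAAGGTTCCTGAAacg
ABHD3, chr18:19284860-19284889, minus strand: gaaccgcgcTTCTGGAAGGTTCctgagtgg
SERPINH1, chr11:75273213-75273242, plus strand: tttccaactTTCCAGAAGTTTCtcgggacg
ZFAND2A, chr7:1199985-1200014, minus strand: cgaccggacacTTCGAGAAgggaagtggag
IER5, chr1:181057599-181057628, plus strand: agcaccgtcccGAACATTCactccccacgg

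Starts here are those of the RefSeq windows. The CHORDC1 match was the longest, 23 bases that hold 4 overlapping 2-unit and 3 overlapping 3-unit matches and begin 60 bases before the start. ABHD3 and SERPINH1 each held 1 match of 3 units, beginning 145 and 76 bases before the start. In the deposited assemblies CHORDC1 and SERPINH1 begin further upstream, at 89956532 (minus strand) and 75273101 (plus strand). By those bounds the 3-unit matches of CHORDC1 and SERPINH1 lie inside the first annotated exon. ZFAND2A and IER5 each held 1 match of 2 units. At least 1 match was thus found in 5 of the 9 genes, and a 3-unit match in 3 of them. Counted in the same way, per gene over any of its windows, 16.2% of 27305 genes had a 2-unit and 0.608% a 3-unit match. Of the 35116 single windows, 13.5% held a 2-unit and 0.49% a 3-unit match. Among 16 chaperone genes known to be driven by HSF1, 15 had a window, 11 had a 2-unit and 5 a 3-unit match. No match was found in the windows of DEDD2, CACYBP, RGS2 and TPR, which says only that these letters are not in these windows.

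Each library was deposited as a Cufflinks assembly, in which every transcript carries an FPKM (a fragment number relative to transcript length and to all mapped fragments). FPKM of abundant genes differed by a common factor between libraries, by up to 4.76 times among the heat shock libraries and 2.2 times among the controls. Values were therefore divided by that factor, the median ratio of 1016 genes with more than 10 FPKM in every library, and are called scaled FPKM. Control replicates 1 and 2 and heat shock replicate 3 held the most single-exon transcripts without a strand (141632 to 194489, against 17304 to 45600 in the other libraries). Depth can be given only relative to the shallowest library, from 1 to 2.03. Of markers of this cell line, VIM was at 197 to 402 scaled FPKM and KRT18 at 14.9 to 34.5. LHX1 was at only 0.136 to 1.80. The 8 markers of other cell types each stayed at or under 4.96. Of the cell line markers, only VIM and KRT18 stayed above that level in every library. KRT8, PAX2 and INA reached 17.3, 8.78 and 5.42, but each fell under that level in other libraries. NEFM was at most 4.22. Most markers of this cell line therefore overlapped the range of the other cell types.

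DNAJB1 and HSPA1A, the reference heat shock genes, were higher in every heat shock library than in any control. Neither passed an adjusted p under 0.05 (limma). DNAJB1, an HSP40 cochaperone, had 7.82, 11.2 and 9.60 scaled FPKM in the control libraries and 56.8, 50.2 and 70.0 after heat shock. Its log2 fold change was 2.51 ± 0.19 (SE, n = 3 per group, unadjusted p = 1.28e-05 and adjusted p = 0.149, limma with Benjamini-Hochberg adjustment). HSPA1A, an inducible HSP70, had 5.34, 7.82 and 5.04 in the control libraries and 14.1, 13.6 and 14.2 after heat shock, with a log2 fold change of 1.10 ± 0.21 (unadjusted p = 0.00183, adjusted p = 0.900, limma). HSPA1A and HSPA1B are near-identical copies, and how reads were split between them is uncertain.

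Among 14217 genes averaging at least 1 scaled FPKM, none passed an adjusted p under 0.05 (0% in either direction, limma). At an unadjusted p under 0.05, 93 genes were higher (0.654%) and 341 lower (2.4%). The heat shock values all lay above the control values for 245 genes (1.72%) and all below them for 719 (5.06%). The median log2 fold change of all tested genes was -0.25, so a gene at 0 stood above most others. Medians of the gene lists below are to be read beside that value, and only that of the death domain partners lay under it.

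Of the 9 genes, 8 were tested and RGS2 was under the minimum. None of the 8 passed an adjusted or an unadjusted p under 0.05. All 3 heat shock values lay above all 3 control values in 3 of the 8, CACYBP, IER5 and TPR, against the background of 1.72%, and in none did they all lie below (5.06%). The log2 fold change was positive in 7 of the 8, with a median of 0.43 beside -0.25 over all genes tested. Both medians depended on the scaling and on the genes kept, as given in the closing section. For ZFAND2A, ABHD3, TPR and SERPINH1, though, direction or size depended on how assembled pieces of a transcript were counted, as given for each. An exon-weighted value, in which each transcript counts in proportion to the annotated exon bases of the gene that it covers, is therefore set beside the sum. For IER5 and CACYBP this value could differ little from the sum, as given for each. By it, 2 of the 8 genes, CACYBP and IER5, had all heat shock values above the controls (1.43% of all genes) and none had all below (5.2%). With DEDD2 these were also the 3 of 8 that were higher at an unadjusted p under 0.05 (0.611% of all genes), while none was lower (2.14%) and none passed the adjusted threshold in either direction (0%, limma).

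**Figure D1:**
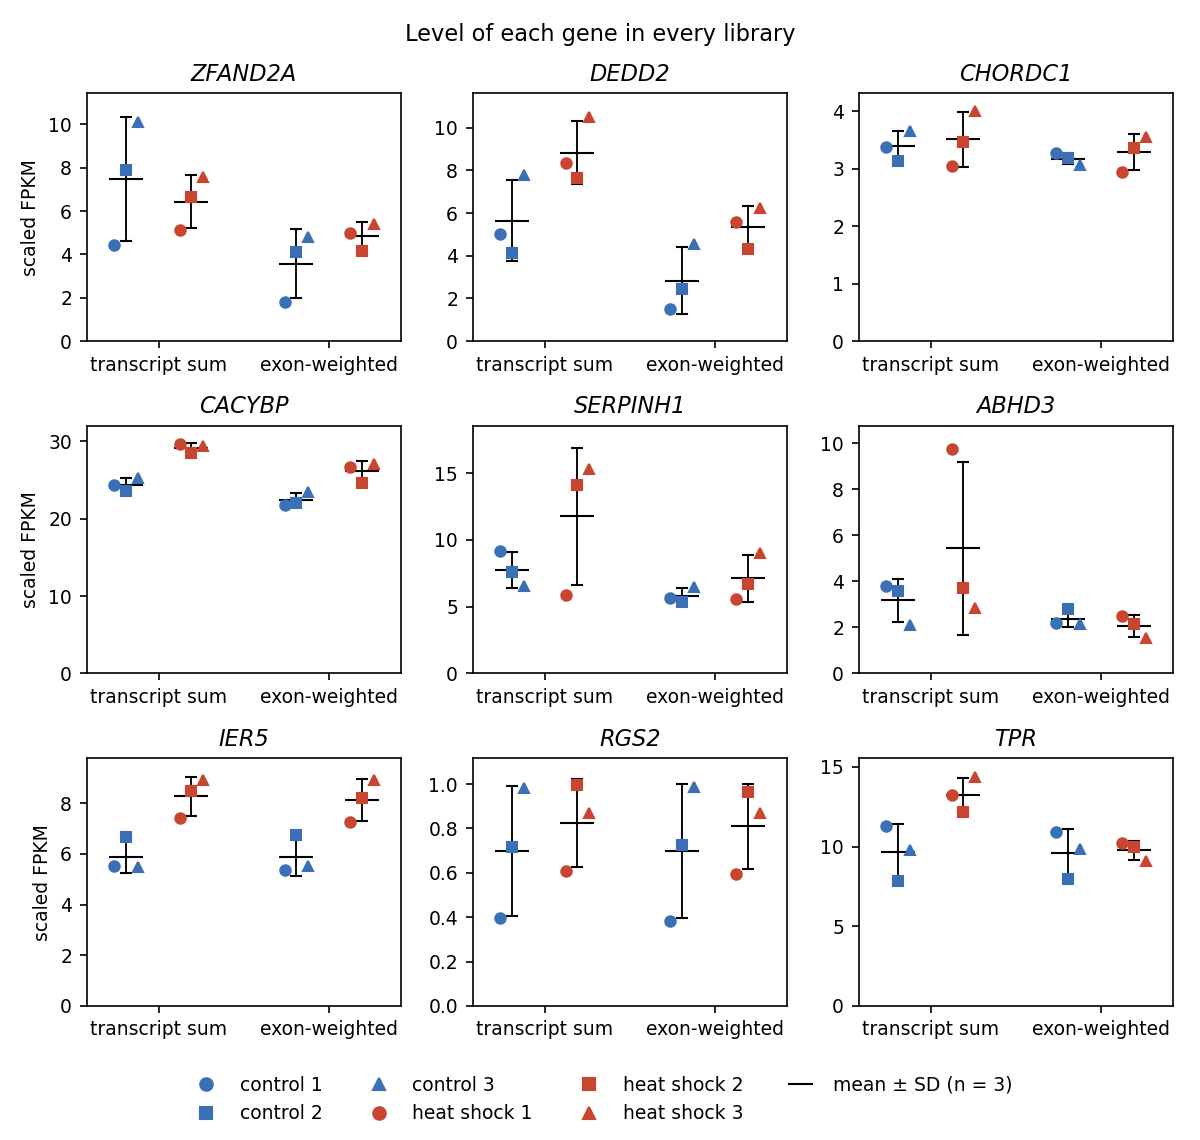
Scaled FPKM of the 9 genes in the 3 control (blue) and 3 heat shock (red) libraries, as the sum over transcripts and as the exon-weighted value, with marker shapes for the replicate and black bars for mean ± SD (n = 3). IER5 and CACYBP are separated on both scales, and TPR on the transcript sum alone.

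IER5 is an immediate early gene whose protein is known to bring the phosphatase PP2A to HSF1 and other partners. It is a gene of 1 exon on chromosome 1 (181057638 to 181059979, hg19), so its value rests on its annotated transcript in every library. Scaled FPKM were 5.54, 6.65 and 5.48 in the control libraries and 7.44, 8.46 and 8.91 after heat shock. Every heat shock library was above every control. The means were 5.89 ± 0.66 and 8.27 ± 0.76 (SD, n = 3), a ratio of 1.40. The log2 fold change was 0.43 ± 0.19 (SE, unadjusted p = 0.0622, adjusted p = 0.900, limma). With exon-weighted values it was 0.41 ± 0.12 and the unadjusted p was 0.0157 (adjusted p = 0.866, limma). For a gene of 1 exon without assembled pieces, exon weighting changes only the common factor, so this is not a separate reading. In the authors' pooled table, which holds 1 FPKM per group, IER5 had 6.39 in control and 45.5 in heat shock. That ratio of 7.12 stood at the 99.8th percentile of 12450 named loci with a pooled control FPKM of at least 1, whose median ratio was 3.66.

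CACYBP binds the calcium sensor S100A6 and the ubiquitin ligase SIAH1, and so belongs to the machinery of protein breakdown. The gene spans 174968571 to 174981163 of chromosome 1. It had the highest level of the 9 genes, at 24.3, 23.6 and 25.3 scaled FPKM in the control libraries and 29.7, 28.6 and 29.3 after heat shock. The groups did not overlap and each was narrow, with means of 24.4 ± 0.83 and 29.2 ± 0.58 (SD, n = 3). The ratio of means was 1.20 and the log2 fold change 0.25 ± 0.12 (SE, unadjusted p = 0.0725, adjusted p = 0.900, limma). The exon-weighted log2 fold change was 0.21 ± 0.069 (unadjusted p = 0.0212, adjusted p = 0.866, limma), again without overlap. Of its 2 annotated transcripts, the longer-spanning form was listed at 0 in all 6 libraries. In heat shock replicate 2, 7.17 of the 28.6 scaled FPKM came from an assembled variant that lacks the beginning of the annotated transcript. Apart from the common factor, exon weighting could change the level relative to the other libraries only there.

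ZFAND2A is a zinc finger protein induced by arsenite and heat that binds the proteasome. Its gene is on chromosome 7 (1192543 to 1199855). Scaled FPKM were 4.41, 7.88 and 10.1 in the control libraries and 5.12, 6.65 and 7.55 after heat shock, so the heat shock values lay within the control range. Its log2 fold change was -0.14 ± 0.32 (SE, unadjusted p = 0.682, adjusted p = 0.931, limma). Its direction depended on the pieces counted. The annotated transcript was listed at 0 in 4 of the 6 libraries, all controls among them, and at 10.9 and 5.72 FPKM as deposited in heat shock replicates 1 and 2. In control replicate 1 the value came from 2 single-exon pieces of 4584 and 15327 bases, far longer than the 901 exon bases of the gene. Weighted by exons, the controls were 1.79, 4.12 and 4.81 and the heat shock libraries 4.98, 4.17 and 5.42, and the log2 fold change was 0.42 ± 0.29 (unadjusted p = 0.201, adjusted p = 0.866, limma), with overlap. It also turned positive with FPKM as deposited (0.64) and without control replicate 3 (0.090).

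CACYBP and ZFAND2A were read with 8 genes of the same ubiquitin machinery, among them the segregase VCP and its cofactors. None of the 8 tested passed an unadjusted p under 0.05. The greatest log2 fold change was 1.01 for ZFAND2B, the closest relative of ZFAND2A (unadjusted p = 0.183, limma), and the lowest -0.78 for S100A6, the calcyclin that CACYBP is named for (unadjusted p = 0.233, limma). The list's median was -0.06. The cofactor NPLOC4, named after its values were seen, was the 1 gene of the list without overlap. It was lower, as were 5.06% of all genes. Its scaled FPKM were 11.4, 9.87 and 10.9 in the control libraries and 8.14, 7.40 and 9.72 after heat shock.

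DEDD2 carries a death effector domain, a protein module of apoptosis signalling, and is found in the nucleolus. Its gene is on chromosome 19 (42702745 to 42724304). It had the greatest log2 fold change of the 8, 0.59 ± 0.27 (SE, unadjusted p = 0.0702, adjusted p = 0.900, limma). Scaled FPKM were 5.01, 4.13 and 7.78 in the control libraries and 8.34, 7.66 and 10.5 after heat shock. Control replicate 3 was just above heat shock replicate 2, and the other 4 libraries were separated. Exon-weighted values were 1.52, 2.42 and 4.56 in the control libraries and 5.56, 4.29 and 6.22 after heat shock, with the same overlap. The exon-weighted log2 fold change was 0.80 ± 0.31 (unadjusted p = 0.0413, adjusted p = 0.866, limma). The annotated transcripts of DEDD2 were all listed at 0 in 4 of the 6 libraries, where pieces that include its 3′ end carried most or all of the value. When each library was left out in turn, the transcript sum gave 0.43 (without control replicate 2, unadjusted p = 0.173, limma) to 0.82 (without control replicate 3, unadjusted p = 0.0220, adjusted p = 0.829, limma), and only the latter passed an unadjusted p under 0.05. In the pooled table of the authors, DEDD2 had 6.48 FPKM in control and 37.2 in heat shock, a ratio of 5.75 at the 99.0th percentile.

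The genes nearest to DEDD2 in pattern over the 6 libraries were GCN1 (Pearson r = 0.991), ZNF280D (0.987) and ID1 (0.979), picked as the 3 highest of all tested genes and given as a description. Of 5 death domain partners, 3 were tested, and none passed an unadjusted p under 0.05. Their median log2 fold change was -0.49. The close relative DEDD was at -0.02 (unadjusted p = 0.940, limma) and CFLAR, an inhibitor of caspase 8, at -0.63 (unadjusted p = 0.307, limma).

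CHORDC1 is an HSP90 cochaperone with CHORD domains that is also known to restrain the kinase ROCK. It lies on chromosome 11 (89933597 to 89956532), and its RefSeq promoter window held the longest run of heat shock units shown above. The groups overlapped in mRNA level, at 3.38, 3.14 and 3.65 scaled FPKM in the control libraries and 3.05, 3.47 and 4.01 after heat shock. The log2 fold change was 0.035 ± 0.22 (SE, unadjusted p = 0.881, adjusted p = 0.973, limma) and 0.036 ± 0.11 by exon-weighted values. It turned slightly negative without control replicate 2 (-0.0080) and without heat shock replicate 3 (-0.035).

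Signal was also listed in the introns of CHORDC1. Single-exon transcripts without a strand, counted to no gene, lay inside CHORDC1 in all 3 heat shock libraries (4, 2 and 1 of them) and in none of the 3 controls. All 7 were wholly intronic. The 3 heat shock libraries shared a stretch of 205 bases in intron 1 (chr11:89955176-89955380). It begins 1152 bases from the gene's start in the deposited assemblies, not that of the RefSeq window. The transcripts over it had 12.6, 24.4 and 40.9 FPKM as deposited in heat shock replicates 1, 2 and 3. Scaled FPKM were 5.91, 10.5 and 84.2, so that replicate 3 stood well above the others on the scaled values. These 3 transcripts were 585, 436 and 205 bases long, and for a given number of fragments FPKM is higher in a shorter transcript. Of 14015 genes, 23 (0.164%) had a single-exon transcript without a strand starting inside their bounds in every heat shock and no control library. That count asked neither for an intronic position nor for a shared stretch. Heat shock replicates 1 and 2 had the fewest transcripts of this kind over the whole genome and control replicates 1 and 2 were among those with the most. These transcripts carry no strand, so their strand of origin is unknown, and the pattern was noticed after the values were seen.

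**Figure D2:**
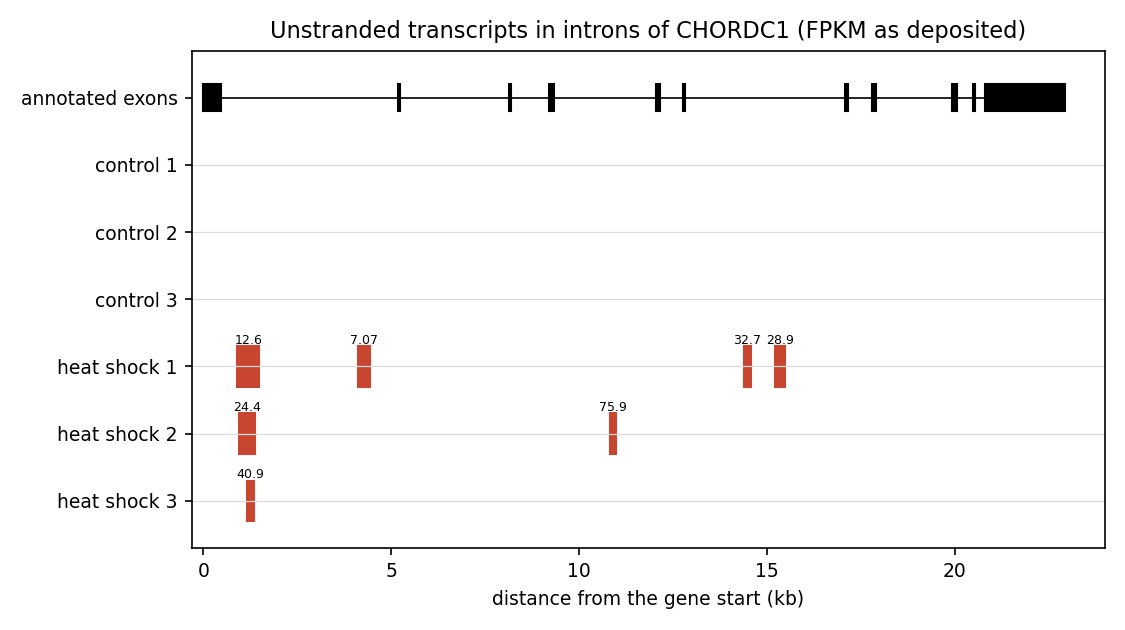
Unstranded single-exon transcripts in the introns of CHORDC1 by library, along the distance from the gene start in kb, with annotated exons as black boxes and FPKM as deposited above each red box. The 3 heat shock libraries hold 4, 2 and 1 transcripts and the 3 control rows are empty.

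Among 7 partners of CHORDC1 in the HSP90 machinery, 6 were tested and none passed an unadjusted p under 0.05. Their log2 fold changes ran from -0.40 for ROCK1 (unadjusted p = 0.441, limma) to 0.01 for CDC37, the kinase-loading cochaperone (unadjusted p = 0.925, limma), with a median of -0.07.

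SERPINH1, also called HSP47, is a chaperone of the endoplasmic reticulum that is dedicated to collagen. It lies on chromosome 11 (75273101 to 75283849). Scaled FPKM were 9.18, 7.56 and 6.52 in the control libraries and 5.85, 14.1 and 15.3 after heat shock. Heat shock replicate 1 was thus the lowest of the 6 libraries and the other two the highest. With these values the log2 fold change was 0.45 ± 0.37 (SE, unadjusted p = 0.271, adjusted p = 0.900, limma). A piece of 1119 bases at the 3′ end held 12.8 of the 14.1 scaled FPKM in heat shock replicate 2. By exon-weighted values the controls were 5.64, 5.33 and 6.43, the heat shock libraries 5.59, 6.71 and 9.04, and the log2 fold change 0.24 ± 0.17 (unadjusted p = 0.225, adjusted p = 0.866, limma). When each library was left out in turn, the transcript sum gave 0.24 (without heat shock replicate 3, unadjusted p = 0.567, limma) to 0.84 (without heat shock replicate 1, unadjusted p = 0.0161, adjusted p = 1.00, limma). It gave 0.28 without heat shock replicate 2 (unadjusted p = 0.544, limma).

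Of 10 collagens and collagen-modifying partners of SERPINH1, 9 were tested, none passed an unadjusted p under 0.05, and the median log2 fold change was -0.04. FKBP10, a collagen prolyl isomerase, was highest at 0.16 (unadjusted p = 0.365, limma) and the only one without overlap (1.72% of all genes lay wholly above). COL1A1 was lowest at -0.71 (unadjusted p = 0.235, limma).

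ABHD3 is a phospholipase that cleaves phosphatidylcholines with medium-length chains. Its gene is on chromosome 18 (19230858 to 19284766). Scaled FPKM were 3.81, 3.58 and 2.12 in the control libraries and 9.73, 3.70 and 2.86 after heat shock, so 1 library stood apart. In that library, heat shock replicate 1, a piece of 445 bases held 6.71 of the 9.73 scaled FPKM. Over the groups the log2 fold change was 0.50 ± 0.45 (SE, unadjusted p = 0.307, adjusted p = 0.900, limma), and 0.049 without that library. By exon-weighted values it was reversed, at -0.15 ± 0.18 (unadjusted p = 0.445, adjusted p = 0.866, limma), with heat shock replicate 1 at 2.50 and the controls between 2.13 and 2.81. Of 5 relatives of the ABHD family, 4 were tested and none passed an unadjusted p under 0.05. They ran from ABHD2 at -0.33 (unadjusted p = 0.482, limma) to ABHD5 at 0.37 (unadjusted p = 0.407, limma).

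TPR forms the long filaments of the nuclear basket, on the inner face of the nuclear pore. It lies on chromosome 1 (186280786 to 186344457) and has 51 exons over 63.7 kb. By the transcript sum its scaled FPKM were 11.3, 7.84 and 9.80 in the control libraries and 13.2, 12.2 and 14.3 after heat shock, without overlap. The log2 fold change was 0.43 ± 0.19 (SE, unadjusted p = 0.0655, adjusted p = 0.900, limma). By exon-weighted values the controls were 10.9, 7.95 and 9.85 and the heat shock libraries 10.2, 9.96 and 9.07, and the log2 fold change was 0.033 ± 0.13 (unadjusted p = 0.805, adjusted p = 0.944, limma). The separation of the sums was therefore not seen when the length of the pieces was taken into account. Leaving out each library in turn, the transcript sum gave 0.30 (without control replicate 2, unadjusted p = 0.155, limma) to 0.54 (without control replicate 1, unadjusted p = 0.0456, adjusted p = 0.927, limma), and only the latter passed an unadjusted p under 0.05.

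The forms listed at TPR differed between the libraries. In the 3 controls a single annotated transcript of full length carried the whole value, at 11.3, 7.84 and 9.80 scaled FPKM. In the heat shock libraries that transcript was listed at 2.34, 3.11 and 4.34 scaled FPKM, with assembled forms beside it. There were 5 of these, at least 1 in each library, and 4 of the 5 had 12 to 39 exons and lacked the 5′ ones. The assemblies show which forms Cufflinks listed and hold no coverage by exon, so they do not show whether reads were spread unevenly along TPR.

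Cufflinks grouped TPR with a U6 small nuclear RNA gene, and its assembled forms are counted to TPR here because they share most bases with its exons. Where transcripts of such groups were counted to no gene, the log2 fold change of TPR was -1.33 (unadjusted p = 0.00243, adjusted p = 0.910, limma), since only the full-length form was left.

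Of 10 nuclear basket partners of TPR all were tested, none passed an unadjusted p under 0.05, and the median log2 fold change was -0.09. SENP1, a SUMO protease at the basket, was highest at 0.33 (unadjusted p = 0.481, limma). NXF1, the main mRNA export receptor, was lowest at -1.77 (unadjusted p = 0.0635, limma) and was listed at 0 in heat shock replicates 1 and 2.

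RGS2 speeds up GTP hydrolysis by the G protein alpha subunit Gq and so ends its signal. It lies on chromosome 1 (192778169 to 192781407) and had the lowest level of the 9 genes. Scaled FPKM were 0.395, 0.715 and 0.982 in the control libraries and 0.609, 0.996 and 0.868 after heat shock, with overlapping groups. With no minimum FPKM its log2 fold change was 0.11 ± 0.26 (SE, unadjusted p = 0.683, adjusted p = 0.939, limma). Of its 11 relatives, 7 were tested, none passed an unadjusted p under 0.05, and none had a positive log2 fold change. They ran from RGS12 at -0.83 (unadjusted p = 0.241, limma) to RGS3 at -0.04 (unadjusted p = 0.962, limma), with a median of -0.15. The median of all genes tested was lower, at -0.25.

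IER5 was read with 8 genes, its relatives IER2, IER3 and IER5L, subunits of PP2A and the phosphatase CDC25B. All 8 were tested and 1 was higher at an unadjusted p under 0.05, beside 0.654% of all genes. This was IER5L, the closest relative of IER5, at 2.57, 2.73 and 3.37 scaled FPKM in the control libraries and 4.64, 5.05 and 5.11 after heat shock. Its log2 fold change was 0.61 ± 0.22 (SE, unadjusted p = 0.0300, adjusted p = 0.900, limma). The list's median was 0.12.

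For comparison, 15 of the 16 HSF1-driven chaperones were tested, and 11 of the 15 had a positive log2 fold change. HSPA6, named after its values were seen, was under the minimum. Its scaled FPKM overlapped, at 0.332, 0.980 and 0.290 in the control libraries and 0.144, 0.146 and 1.46 after heat shock. At an unadjusted p under 0.05, 5 of the 15 were higher and 0 lower, beside 0.654% and 2.4% of all genes. Their median log2 fold change was 0.33 and that of the 8 genes 0.43, without a test between them. Besides DNAJB1 and HSPA1A, the largest of these 5 were HSPA1B (1.80, unadjusted p = 7.29e-05, limma) and DNAJA1 (0.41, unadjusted p = 0.0247, limma). Heat shock values lay all above control in 7 of the 15 (1.72% of all genes) and all below in 1 (5.06%). The latter was the HSP70-HSP90 adaptor STIP1, named after its values were seen (-0.31, unadjusted p = 0.0859, limma). Of 12 early stress genes, 3 were higher at an unadjusted p under 0.05, again beside 0.654% of all genes. They were PPP1R15A (1.39, unadjusted p = 0.0230, limma), which restarts translation after stress, polyubiquitin UBB (0.86, unadjusted p = 0.0212, limma) and the transcription factor JUN (0.38, unadjusted p = 0.0255, limma). Heat shock replicate 1 held much of PPP1R15A, with 32.8 scaled FPKM against 10.5 and 10.4 in the other heat shock libraries and 4.74 to 6.16 in the controls.

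With FPKM as deposited, without the common factor, all 8 tested genes had a positive log2 fold change, from 0.64 for ZFAND2A to 1.33 for DEDD2. The median over the 13323 genes then tested was 0.44. None of the 8 passed an adjusted p under 0.05 on this scale (0.015% of all genes higher and 0.00751% lower, limma) or an unadjusted one (2.01% and 1.76%). In all 8 the groups overlapped (3.68% of all genes lay wholly above and 2.18% wholly below). Heat shock replicate 3 was below heat shock replicates 1 and 2 for every one of the 9 genes as deposited, and its common factor was 0.485 against 2.13 and 2.31.

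**Figure D3:**
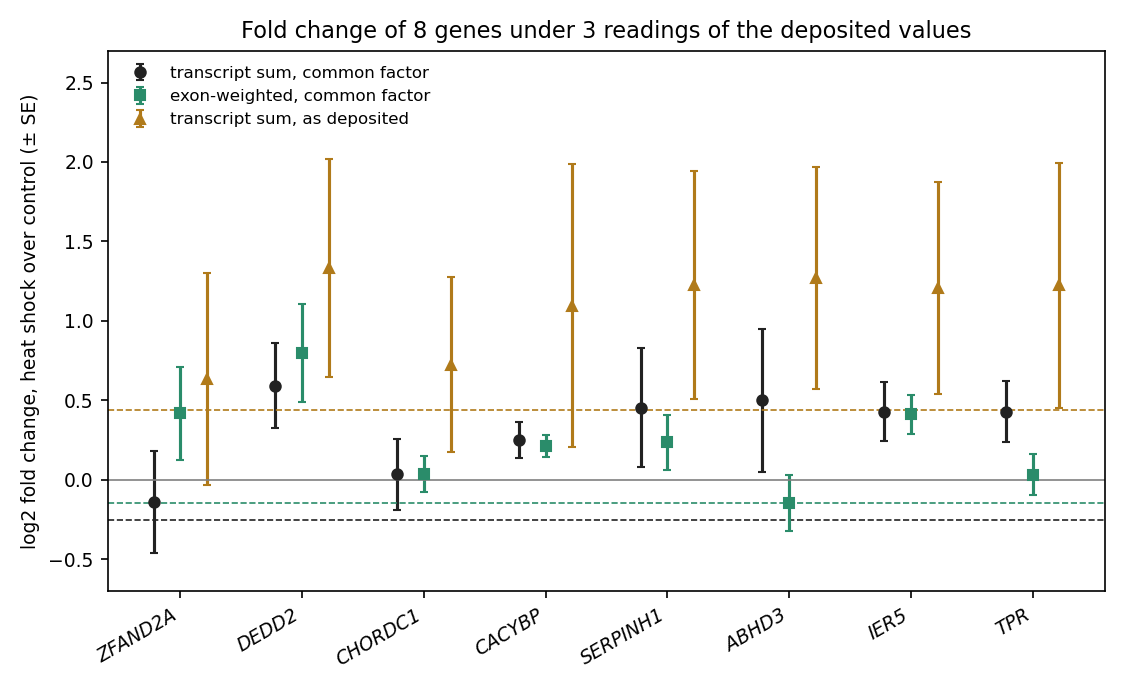
Log2 fold change (heat shock over control, ± SE) of the 8 tested genes from scaled transcript sums, scaled exon-weighted values and FPKM as deposited, with dashed lines at the median of all genes on each scale (-0.25, -0.15 and 0.44). All genes but ABHD3 lie above the median on all 3 scales, and ABHD3, TPR and ZFAND2A move most between the scaled sum and the exon-weighted value.

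Unstranded transcripts also lay inside other genes. In DEDD2 there were 7, 10 and 2 in the control libraries and 1, 0 and 6 after heat shock. In SERPINH1 there were 4, 3 and 0 in the control libraries and 0, 0 and 3 after heat shock. In both, control replicates 1 and 2 and heat shock replicate 3 held the most, the libraries with the most such transcripts over the genome. TPR held 2 and 3 in heat shock replicates 1 and 2 and 0 in the other 4 libraries. In the 5 kb downstream of the genes, CHORDC1 had 1 each in heat shock replicates 1 and 2, at 6.21 and 8.98 FPKM as deposited, and none in the other 4 libraries. DEDD2 had 2, 2 and 1 there in the control libraries and 0, 1 and 2 after heat shock, SERPINH1 had 4, 2 and 0 against 0, 0 and 2, and ZFAND2A had 2, 1 and 1 against 0, 0 and 2. IER5 had 2 in control replicate 2 alone, and ABHD3, CACYBP, RGS2 and TPR had none. IER5 and RGS2 held none inside their bounds.

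In the authors' pooled table, the ratio of heat shock to control FPKM was above the median ratio of 3.66 at 9 of the 10 entries. It ran from 4.44 for ZFAND2A to 7.12 for IER5 at these. Of named loci with a pooled control FPKM of at least 1, 90% had ratios between 0.730 and 5.05. The second entry of ZFAND2A, with the same bounds, was the exception, at 0.312 FPKM in control and 0.262 in heat shock. That entry and RGS2 (0.708 FPKM in control) were under the minimum of 1. Among the loci at or above it, the first entry of ZFAND2A stood at the 78.6th percentile of the ratio. CHORDC1 was at 78.9, TPR at 79.4, ABHD3 at 86.1, SERPINH1 at 92.1 and CACYBP at 94.5. Only DEDD2 (99.0) and IER5 (99.8) were beyond the range that held 90% of these loci. The table gives no value for single libraries, so these ratios have no error, and the TPR locus there includes the U6 small nuclear RNA gene.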

How the data were processed

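Control and heat shock libraries (n = 3 each) were grouped by their titles. Per the labels and the study's methods, the authors used Trimmomatic 0.3.0 for trimming, TopHat2 for alignment to hg19 and Cufflinks 2.0.2 for assembly of each library. The deposited value of a transcript is an FPKM, in an attribute column that also holds other entries such as intervals and coverage. The authors' merged table holds 1 pooled FPKM per group, and its fold changes, p-values and q-values, the authors' own comparison, were not used. The files hold no read counts.

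FPKM were summed per gene over annotated and grouped assembled transcripts, with 96.7% of 40803 accessions named through RefSeq. Sums were divided by the common factor, and log2(scaled FPKM + 1), which understates changes of low genes, was tested two-sided with limma 3.58.1 in R 4.3.3 (lmFit, eBayes with trend, Benjamini-Hochberg over all genes with a mean of at least 1). An exact test of 3 against 3 cannot go below p = 0.1 and was not used. The members and lists were chosen with earlier results of these data known. Named genes were the 9 members, HSPA1A and DNAJB1, and from each other list up to 4 genes with unadjusted p under 0.05 and no overlap, or else the greatest and lowest, and the 3 genes most like the member with the greatest fold change. After values were seen, transcripts in groups of several genes, counted to none at first, were given to the gene whose exons they share most. The first rule (kept as an alternative), the exon-weighted values (with a common factor over 771 genes) and the shared intronic stretch were also added then. The other choices tried were further scalings, pseudocounts, minimums, no trend, annotated transcripts alone, a replicate block, a term for unstranded transcripts and leaving out each library. Scripts were tested on simulated data.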

Additional observations from a re-analysis of the deposited data

How the results depend on the processing

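Of the members' results, the non-overlap and positive fold of IER5 and CACYBP were kept under both the main and the exon-weighted values. Exon weighting could change little here, since IER5 has no assembled form and CACYBP has one in heat shock replicate 2 alone. The groups overlapped for both genes with FPKM as deposited and as TPM. Those of CACYBP also overlapped with size factors over all genes and with annotated transcripts alone. Their log2 fold changes stayed positive in every setting in which they were tested. ZFAND2A reversed from -0.14 to 0.64 with FPKM as deposited, 0.24 with size factors over all genes, 0.0016 as TPM, 1.44 with annotated transcripts alone (listed at 0 in the controls) and 0.42 weighted by exons. CHORDC1 (-0.34), SERPINH1 (-0.25) and TPR (-1.32) reversed with annotated transcripts alone, ABHD3 (-0.15) weighted by exons, and TPR (-1.33) with transcripts of multi-gene groups counted to none. The causes were not tested. Leaving out each library, log2 fold changes ran from -0.43 to 0.090 for ZFAND2A and from -0.035 to 0.10 for CHORDC1.

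Members higher at unadjusted p numbered 0 in the main fit (93 of 14217 genes) and 2 with size factors over all genes (253 of 13544). There was 1 of the 2 tested with a minimum of 10 FPKM (52 of 2690 genes). Weighted by exons there were 3 (73 of 11952), and 0 to 1 leaving out a library (71 to 150 genes). Lower, 1 was called with annotated transcripts alone (131 of 6699 genes) and 1 with multi-gene groups counted to none (342 of 13860), in each case TPR. Non-overlapping higher members fell from 3 (1.72% of all genes) to 0 as deposited (3.68%). They fell to 1 with size factors over all genes, 0 as TPM and 1 with annotated transcripts alone. Shares of all genes without overlap were taken only for the main, as-deposited and exon-weighted values, so the other counts here have no background. Non-overlapping lower, 1 each was found with annotated transcripts alone and with multi-gene groups counted to none, and 0 to 1 leaving out a library (ZFAND2A without control replicate 1).

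Over all genes, adjusted calls were 2 higher and 1 lower as deposited, 1 and 1 with size factors over all genes, 1 higher as TPM, 1 higher with a minimum of 10 FPKM, and 0 to 5 higher and 0 to 1 lower leaving out a library. Unadjusted higher genes numbered 93, against 268 as deposited, 253 with size factors over all genes, 52 with a minimum of 10 FPKM, 144 with a term for unstranded transcripts, and 71 to 150 leaving out a library. Unadjusted lower genes numbered 341, against 61 with a minimum of 10 FPKM, 131 with annotated transcripts alone, and 159 to 3266 leaving out a library, the highest without heat shock replicate 3. The share of higher among unadjusted calls was 21.4%, against 53.4% as deposited, 46.3% with size factors over all genes, 46.0% with a minimum of 10 FPKM, 50.9% with annotated transcripts alone and 4.39% without heat shock replicate 3. The median log2 fold change of all genes was -0.25 in the main fit, and from -0.45 without heat shock replicate 3 to 0.44 as deposited. With a minimum of 10 FPKM it was -0.021, beside 0.34 for the 2 members tested. With annotated transcripts alone it was -0.0023 (members 0.13), and with size factors over all genes 0.080 (members 0.82).

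List medians moved as follows. As deposited they were 1.14 for HSF1-driven chaperones, 0.78 for early stress genes, 0.79 for ubiquitin, 0.28 for death domain, 0.78 for HSP90, 0.72 for collagen, 0.64 for ABHD, 0.86 for IER and PP2A and 0.77 for nuclear basket genes. With size factors over all genes the same lists without collagen gave 0.72, 0.40, 0.36, -0.12, 0.35, 0.24, 0.48 and 0.32. As TPM the chaperones were at 0.50, HSP90 at 0.090, IER and PP2A at 0.26 and nuclear basket genes at 0.097. With a minimum of 10 FPKM early stress genes were at 0.38 and IER and PP2A at -0.13, and with annotated transcripts alone death domain genes were at 0.63 and IER and PP2A at 0.73. Leaving out a library gave -0.12 to 0.048 for HSP90 and 0.032 to 0.24 for IER and PP2A.

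Same-numbered libraries did not deviate together (correlations of 0.04, -0.28 and -0.33), and the main fit did not pair them. Control replicate 2 and heat shock replicate 3, both with many unstranded transcripts, gave 0.36. Such correlations cannot show whether same-numbered samples shared a culture or a day. With the replicate block, unadjusted calls were 93 higher and 221 lower, 0 members were called and the members' log2 fold changes stayed as they were. Depth is known only relative to other libraries, so no counting limit could be given.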
